A study of Homo sapiens with 9 samples.

Results

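The HOX gene clusters were examined in 3 CUT&Tag peak lists from A549, an epithelial cell line of human lung adenocarcinoma. Their peaks were chosen by position alone, as those with a summit in 4 windows of hg19. The windows were chr7:27130000-27290000 (HOXA), chr17:46600000-46815000 (HOXB), chr12:54330000-54452000 (HOXC) and chr2:176940000-177060000 (HOXD), and they are 160, 215, 122 and 120 kb long. They held 48 of the 26201 peaks listed on chromosomes 1 to 22, X and Y: 42 of 17018 H3K4me3 peaks, 5 of 6794 HA-BAZ2B peaks and 1 of 2389 WT peaks. In CUT&Tag, an antibody guides a transposase to its target in permeabilised cells, and the fragments cut there are sequenced. The HA-BAZ2B group is an anti-HA profile of a line with an HA tag placed at the 5′ end of its endogenous BAZ2B gene, and the H3K4me3 group profiles the same tagged line. The WT group is an anti-HA profile of untagged cells and gives the background of that antibody. Each group has 3 replicates but 1 deposited list, which holds the peaks seen in at least 2 of them, so no value has a replicate error and no test over samples could be made. The labels do not say whether the tagged line is 1 clone, and an siRNA transfection in their protocols is assigned to no sample.

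HOX genes encode homeodomain transcription factors that set the identity of segments along the body axis. They lie in clusters in the order in which they act along that axis, and adult cells keep the part of the code that fits their origin. The clusters are textbook targets of the opposing Polycomb and Trithorax systems: the former places H3K27me3 over silent genes, and the latter places H3K4me3, a mark of active or poised promoters. BAZ2B is a bromodomain protein of ISWI-type chromatin remodelers. The study concerns the control of G-quadruplexes, folds of guanine-rich DNA, by BAZ2 remodelers.

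In the RefSeq gene table of GRCh38.p14, which was used for gene order only, all 38 HOX genes considered here were found. With rising coordinates these genes run from HOXA2 to HOXA13, from HOXB1 to HOXB13, from HOXC13 to HOXC4 and from HOXD13 to HOXD1. HOXC4, HOXC5 and HOXC6 share a start in that table, so their starts do not order them. HOXC4 is named as the last of them here for its number. Low numbers are the anterior genes and high numbers the posterior ones. The HOXA and HOXB groups have 10 genes each and the HOXC and HOXD groups 9 each. The peaks lie on another build, so no peak was tied to a single gene, and promoters of lung epithelial marker genes were not looked up for the same reason. Sides of a cluster are named below by the genes at its ends.

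All 4 clusters carried H3K4me3, and 2 of the 4 carried listed anti-HA peaks. H3K4me3 peaks numbered 13 in HOXA, 11 in HOXB, 8 in HOXC and 10 in HOXD. HA-BAZ2B peaks numbered 3 in HOXC and 2 in HOXB, with 0 in HOXA and 0 in HOXD. The only WT peak was in HOXC. All 5 HA-BAZ2B peaks lay on an H3K4me3 peak, as did 99.0% of the whole HA-BAZ2B list, and 1 of the 5 overlapped a WT peak, against 28.7% of the whole list.

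**Figure D1:**
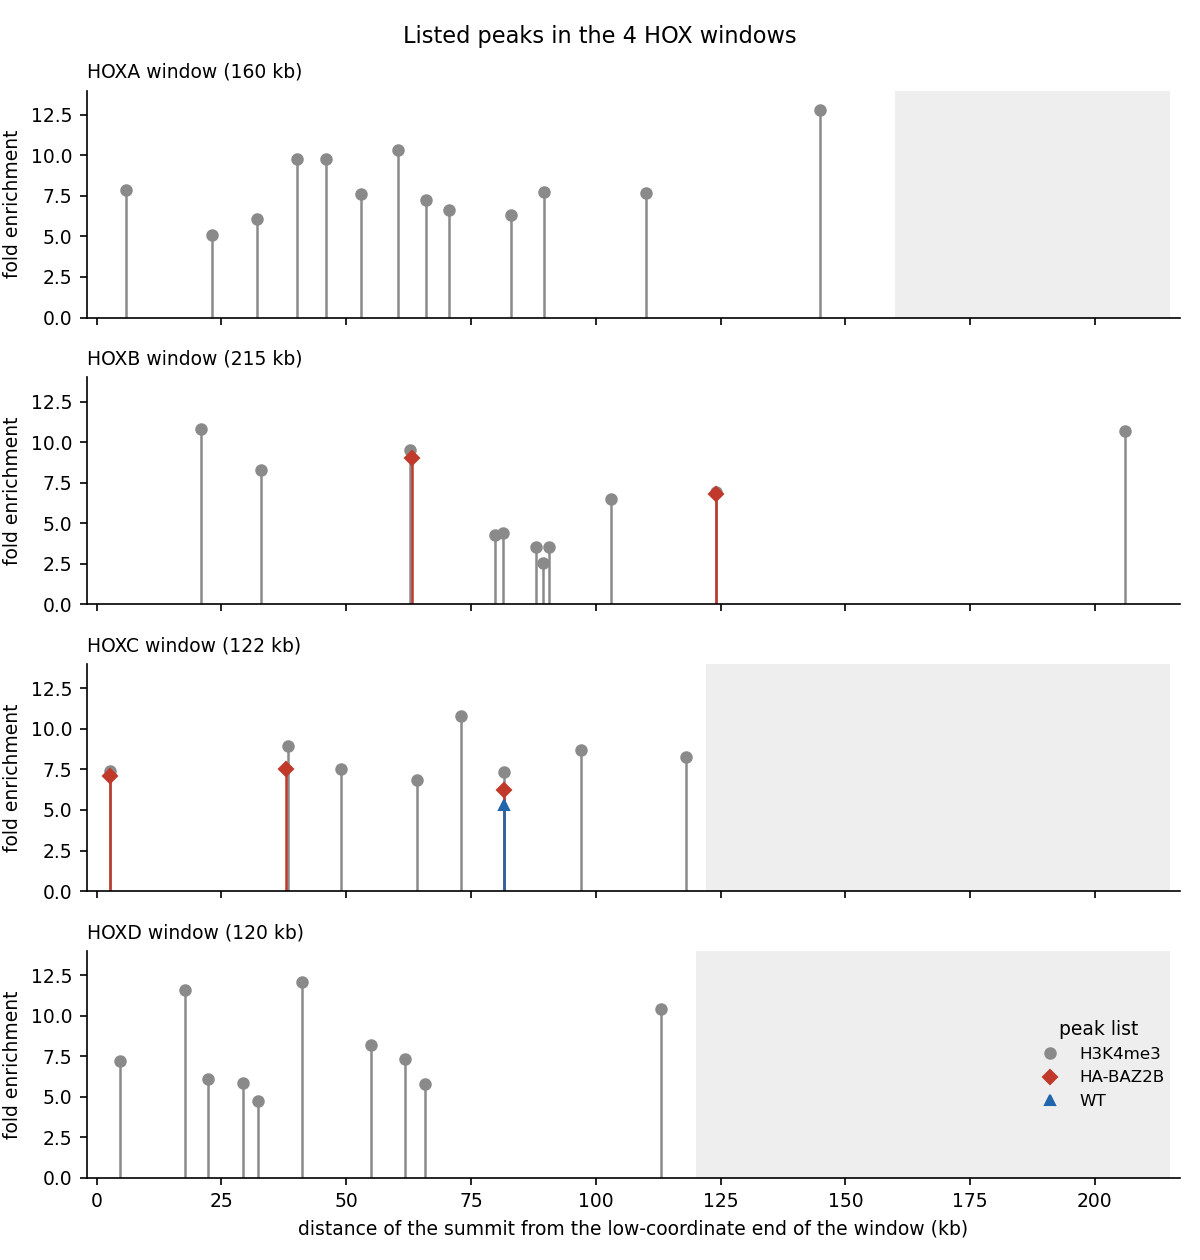
Listed peaks in the 4 HOX windows, with the summit's distance from the low-coordinate end of the window (kb) on the horizontal axis and the authors' fold enrichment on the vertical axis. Circles are H3K4me3 peaks, diamonds HA-BAZ2B peaks and the triangle the WT peak, and grey shading lies outside the window. Diamonds stand in HOXB (2) and HOXC (3) only, and 5 HOXB circles lie below a fold enrichment of 5.

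Fewer of the H3K4me3 peaks in the clusters than over the genome overlapped an HA-BAZ2B peak, called carrying it below. It was 5 of 42 (11.9%, 95% exact binomial interval 3.98 to 25.6%), against 39.5% of all H3K4me3 peaks. Within 1 Mb on either side of the windows the count was 46 of 91 (50.5%, 39.9 to 61.2%). The interval of the clusters therefore ended below both the genome-wide share and the interval of their flanks. A WT peak was carried by 1 of 42 (2.38%, 0.0603 to 12.6%), against 13.1% of all H3K4me3 peaks and 19 of 91 (20.9%, 13.1 to 30.7%) in the flanks. Neighbouring peaks share a locus and the library, so these intervals cover counting error over peaks only.

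**Figure D2:**
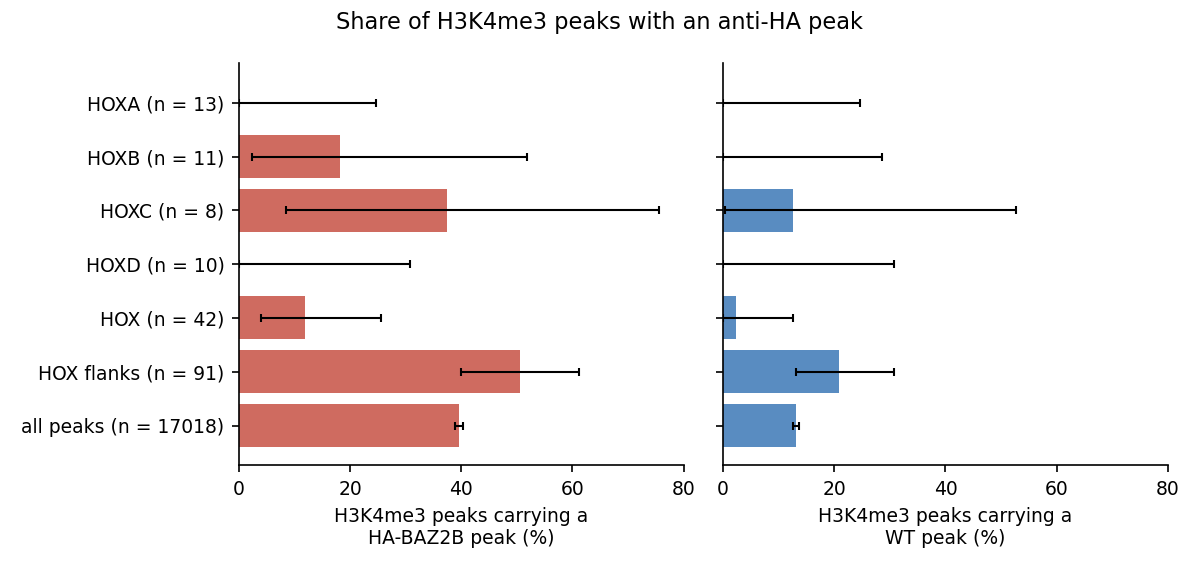
Share of H3K4me3 peaks (%) that overlap an HA-BAZ2B peak (left) or a WT peak (right), for each HOX cluster, the 4 together, their flanks of 1 Mb on each side and the whole list, with n the number of H3K4me3 peaks. Bars start at 0 and lines are 95% exact binomial intervals; the HA-BAZ2B bar of the 4 clusters together stands at 11.9%, below that of the flanks at 50.5% and of all peaks at 39.5%.

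By cluster the shares ran from 0 to 37.5%, within wide intervals, and a difference between clusters was not tested. In HOXC, 3 of 8 (37.5%, 8.52 to 75.5%) carried HA-BAZ2B, a share close to that of the whole list. In HOXB it was 2 of 11 (18.2%, 2.28 to 51.8%), in HOXA 0 of 13 (0 to 24.7%) and in HOXD 0 of 10 (0 to 30.8%). Taken as 3 counts of the total instead of an exact bound, the limit of a count of 0 is 23.1% in HOXA and 30.0% in HOXD. The intervals of the 4 clusters overlap one another, and that of HOXC takes in the genome-wide 39.5%. In the flanks, HA-BAZ2B was carried by 5 of 9 H3K4me3 peaks around HOXA (55.6%, 21.2 to 86.3%) and 20 of 39 around HOXB (51.3%, 34.8 to 67.6%). It was carried by 18 of 37 around HOXC (48.6%, 31.9 to 65.6%) and 3 of 6 around HOXD (50.0%, 11.8 to 88.2%). On the rest of their chromosomes the share was 40.5% for chromosome 7, 50.0% for 17, 42.0% for 12 and 36.8% for 2.

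The HA-BAZ2B peak with the highest −log10 q of the 5 was in HOXC at chr12:54332297-54334035, at the end of the cluster where HOXC13, the most posterior gene, lies. The −log10 q is the peak caller's significance, and fold enrichment its ratio of signal over background. Whether that background came from the same library or from a control is not given. This peak was 1739 bp wide, with a fold enrichment of 7.07 and a −log10 q of 33.3. It covered 91.8% of an H3K4me3 peak of 1653 bp (fold enrichment 7.41, −log10 q 61.2), which was the HOX H3K4me3 peak with the highest −log10 q. The summits lay 66 bp apart, and the nearest listed WT summit was 78.9 kb from that of the HA-BAZ2B peak.

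The next HOXC site, chr12:54367797-54368504, was the narrowest of the 5, with 708 bp, and had the lowest −log10 q, 8.86. Its fold enrichment was 7.50, and it lay wholly inside an H3K4me3 peak of 1229 bp (fold enrichment 8.92, −log10 q 21.8). It covered 57.6% of that peak, where the other 4 HA-BAZ2B peaks covered 91.8 to 98.0% of theirs.

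The third HOXC site, chr12:54410569-54412464, was the only HOX locus listed in all 3 groups. Its HA-BAZ2B peak was 1896 bp wide (fold enrichment 6.24, −log10 q 22.1), on an H3K4me3 peak of 1874 bp (fold enrichment 7.35, −log10 q 53.8). The WT peak there, chr12:54411469-54412235, was 767 bp wide (fold enrichment 5.30, −log10 q 7.43) and lay inside both. The HA-BAZ2B and WT summits were 2 bp apart, and the H3K4me3 summit was 37 bp from the former. At this locus the anti-HA antibody thus gave a listed peak with and without the tag. Scores of different lists are not on 1 scale, so the 2 anti-HA values give no difference between the lines.

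In HOXB the 2 HA-BAZ2B peaks lay in the interior of the cluster, and neither overlapped a listed WT peak. The peak at chr17:46662381-46663384 was 1004 bp wide and had the highest fold enrichment of the 5, 9.03, with a −log10 q of 15.9. Its H3K4me3 partner was 1047 bp wide (fold enrichment 9.49, −log10 q 37.6), and their summits were 441 bp apart, the largest distance of the 5 pairs. The peak at chr17:46723383-46725064 was 1682 bp wide (fold enrichment 6.82, −log10 q 24.4) on an H3K4me3 peak of 1761 bp (fold enrichment 6.91, −log10 q 40.7), with the summits 97 bp apart. This is the last pair before a long stretch without listed peaks on the HOXB13 side. The nearest listed WT summits to the 2 peaks were 210 and 149 kb away.

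Against the whole HA-BAZ2B list most of the 5 peaks were on the lower side in fold enrichment and −log10 q. Their median fold enrichment was 7.07 against 8.16 over the list, and their median −log10 q 22.1 against 28.5. In both measures 4 of the 5 lay below the list's median. Their median width was 1682 bp against 1219 bp, and 3 of the 5 were wider than the list's median. The ratio of HA-BAZ2B to H3K4me3 width ran from 0.576 to 1.05 over the 5 pairs, against a median of 0.917 over all 6725 HA-BAZ2B peaks on an H3K4me3 peak. Their summit distances ran from 37 to 441 bp, against a median of 86 bp over the list.

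H3K4me3 peaks were packed closely in the clusters. There were 6.81 per 100 kb in the 4 windows, against 1.14 in the flanks, and they covered 7.58% of the windows against 1.38% of the flanks. HOXD (8.33 per 100 kb) and HOXA (8.12) were densest, in flanks that held 0.300 and 0.450 per 100 kb. HOXC had 6.56 and HOXB 5.12, in flanks with 1.85 and 1.95. A HOX peak had a median of 7 other H3K4me3 summits within 50 kb, and the median H3K4me3 peak of the list had 1. Of 1072 H3K4me3 peaks with at least 5 such neighbours, 42.0% carried HA-BAZ2B (39.0 to 45.0%), and of the 35 HOX peaks among them 4 did (11.4%, 3.20 to 26.7%). The part of packing in the low share was not tested.

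The HOX H3K4me3 peaks were lower in fold enrichment and −log10 q than the list, and of ordinary width. Their median fold enrichment was 7.46 against 9.07, with 31 of 42 below the list's median and 0 of 42 in its top 10%. Their median −log10 q was 26.0 against 42.0, with 36 of 42 below. In the flanks the medians were 9.75 and 47.2. Their median width was 1087 bp against 1132 bp, with 22 of 42 below. By cluster, the median −log10 q was 34.3 in HOXC, 31.4 in HOXA, 26.2 in HOXB and 20.8 in HOXD, and the median width 1273 bp, 987 bp, 1361 bp and 887 bp in that order.

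Since the HA-BAZ2B share rises with the −log10 q of H3K4me3 over the whole list, the HOX peaks were set beside all peaks of the same broad range. All H3K4me3 peaks were ranked by it into 10 groups of nearly equal number. In groups 1 to 5 lay 36 of the 42 HOX peaks, of which 3 carried HA-BAZ2B (8.33%, 1.75 to 22.5%), against 20.0% of all peaks in those groups. In groups 6 to 10 lay 6, of which 2 carried it (33.3%, 4.33 to 77.7%), against 59.1%. Of these 6, 3 were in group 6, 2 in group 7 and 1 in group 9. In those groups 42.8, 50.3 and 66.9% of all peaks carried it. Groups 8 and 10 held no HOX peak, so 59.1% is not a value for peaks of like −log10 q. Within groups 1 to 5 the HOX peaks were unevenly spread too, with 14 in group 3. The HOX share was below that of the list in both ranges, and in both its interval takes in the value of the list. The part of low −log10 q in the low share was not tested. Grouped by width instead, 4 of the 20 HOX peaks in groups 6 to 10 carried HA-BAZ2B (20.0%, 5.73 to 43.7%), against 55.0% of all peaks there. In width groups 1 to 5 it was 1 of 22 (4.55%, 0.115 to 22.8%), against 24.0%. By width, both intervals of the HOX peaks thus ended below the value of the list. The width groups were not matched for −log10 q, in which the HOX peaks were lower (median 26.0 against 42.0). The part of −log10 q in this difference was not tested either.

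**Figure D3:**
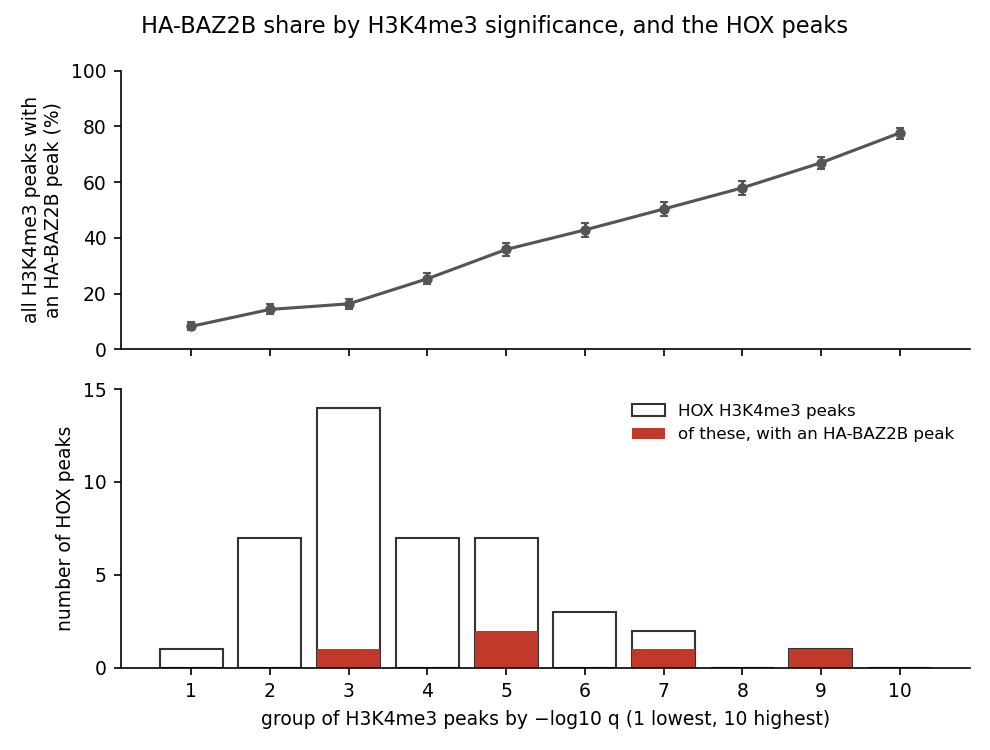
Upper panel, share of all H3K4me3 peaks with an HA-BAZ2B peak (%) in 10 groups by H3K4me3 −log10 q, with 95% exact binomial intervals. Lower panel, number of HOX H3K4me3 peaks in each group, filled where they carry an HA-BAZ2B peak; 36 of the 42 stand in groups 1 to 5, with 3 filled, and 6 in groups 6 to 10, with 2 filled.

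The 5 H3K4me3 peaks that carried HA-BAZ2B had a higher median width and −log10 q than the rest of the clusters. Their median width was 1653 bp and their median −log10 q 40.7, against 983 bp and 25.1 for the 37 without. Over all H3K4me3 peaks, these medians were 1340 bp and 55.0 with HA-BAZ2B, and 979 bp and 31.2 without. Yet 4 HOX peaks had both measures at or above the medians of the 5 and carried no listed anti-HA peak. The first, at the low-coordinate end of the HOXA window, was 1721 bp wide with a −log10 q of 50.6. The second, at chr7:27181705-27183393, was 1689 bp wide with 43.2, and the third, at chr7:27238596-27240445, was 1850 bp wide with 42.3. The fourth, in HOXB at chr17:46702257-46704268, was the widest HOX peak, with 2012 bp and 45.2. Of the 4, 3 were thus in HOXA, the cluster with the most H3K4me3 peaks and no listed anti-HA peak.

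**Figure D4:**
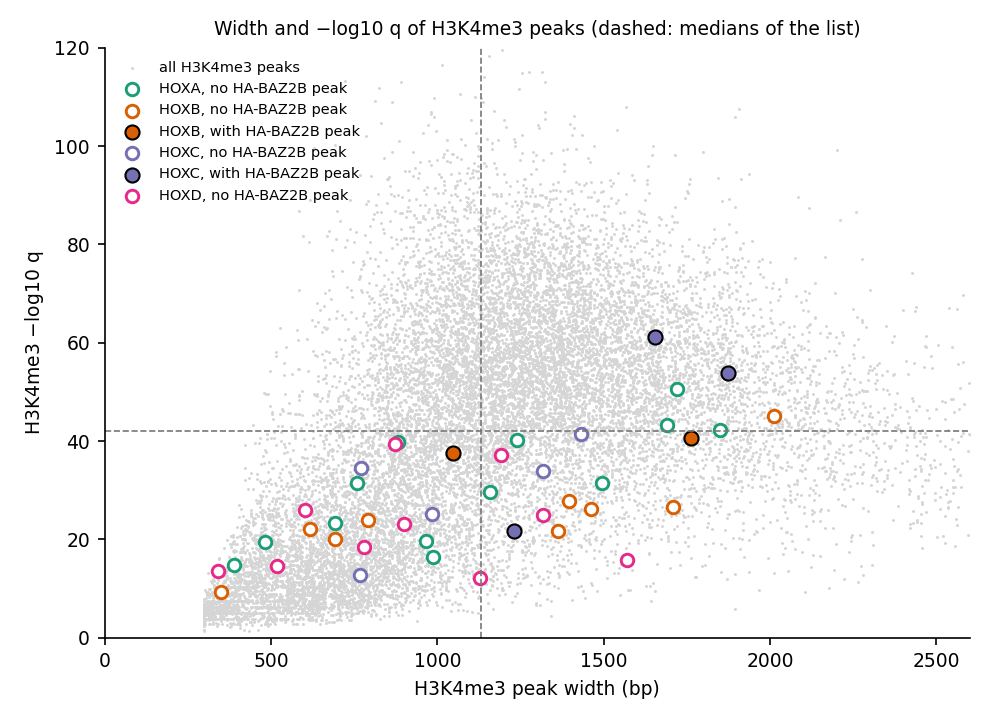
Width (bp) and −log10 q of H3K4me3 peaks, with small grey points for the whole list, open circles for HOX peaks without and filled circles for HOX peaks with an HA-BAZ2B peak, coloured by cluster. Dashed lines are the list's medians (1132 bp and 42.0), and 153 peaks of the list lie beyond the axes; 36 of the 42 HOX peaks lie below the horizontal line.

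In HOXA, the 13 H3K4me3 peaks ran from 389 to 1850 bp in width, from 5.08 to 12.8 in fold enrichment and from 14.9 to 50.6 in −log10 q. The peak with the highest fold enrichment of all HOX peaks, 12.8, was at chr7:27274907-27275663. It stood alone on the HOXA13 side of the cluster, after the longest stretch of the window without a listed peak (34.5 kb). The lowest −log10 q was at chr7:27219554-27219942, which was also the narrowest. The nearest listed HA-BAZ2B peak to any part of this window ended 225 kb before it or began 96.3 kb after it.

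In HOXB, 5 of the 11 H3K4me3 peaks had a fold enrichment below 5, which 1 of the 31 peaks in the other clusters and 7.67% of the whole list had. These 5 lay side by side: chr17:46679185-46680646 (4.30), chr17:46680854-46682249 (4.42), chr17:46687396-46688756 (3.52), chr17:46689229-46689579 (2.57) and chr17:46690170-46690785 (3.54). They include the closest H3K4me3 neighbours of the clusters, 207 bp apart, and the peak with the lowest fold enrichment and −log10 q (9.27) of all 42. None of the 5 carried an anti-HA peak, which allows a share of up to 60.0% by 3 counts of the total. Among all H3K4me3 peaks of such fold enrichment, 25.3% carried HA-BAZ2B, so no difference was detectable over 5 peaks. The widths of 3 of them were above the list's median. The HOXB peak on the far, HOXB13 side, at chr17:46805477-46806266, followed 80.4 kb without a listed peak, the longest such stretch in the 4 windows. The H3K4me3 peak names skip 1 number within it, as explained below. In gene order HOXB13 is set apart from HOXB9, with PRAC1, a gene of another kind, next to it. That peak was 790 bp wide with a fold enrichment of 10.7 and a −log10 q of 23.9.

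In HOXC, the 5 H3K4me3 peaks without HA-BAZ2B had fold enrichments of 6.86 to 10.8. The peak at chr12:54402615-54403384 had the highest fold enrichment of the cluster, 10.8, in 770 bp, and the one at chr12:54378601-54379366 the lowest −log10 q, 12.7. The peak at chr12:54393444-54394876, of 1433 bp with a −log10 q of 41.4, had a higher value than both HOXB peaks that carried HA-BAZ2B. The last peak, chr12:54447073-54448388, lay on the HOXC4 side and was 1316 bp wide with a −log10 q of 34.0. In HOXC, peaks with HA-BAZ2B thus stood on both sides of peaks without it.

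In HOXD, the 10 H3K4me3 peaks had the lowest median −log10 q of the 4 clusters, with values from 12.1 to 39.5 and widths from 342 to 1570 bp, and all 10 lay below the list's median of −log10 q. The highest −log10 q was at chr2:176957384-176958255, with a fold enrichment of 11.6, and the highest fold enrichment, 12.1, at chr2:176980856-176981458. The peak on the HOXD1 side, chr2:177052553-177053744, stood apart after 46.7 kb without a listed peak, with 10.4 and a −log10 q of 37.1. The nearest HA-BAZ2B peaks were 72.9 kb before and 1020 kb after the window, so the gap around HOXD was the widest of the 4.

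The numbers in the peak names bear on the empty clusters. Peaks of a library are numbered along each chromosome, and a deposited list keeps the rows of 1 replicate that recurred in another one, so a skipped number is read here as a peak that was called in that replicate and is not in the list. The values below rest on this reading, which was not tested. Within HOXB, 6 numbers of the HA-BAZ2B source library were skipped between 46663384 and 46723383, a stretch that holds 6 listed H3K4me3 peaks. Within HOXC, 3 were skipped between 54368504 and 54410569, where 3 H3K4me3 peaks are listed. Around HOXA, 12 were skipped between the nearest listed peaks on either side, a stretch of 482 kb whose 13 listed H3K4me3 peaks all lie in the HOXA window. Around HOXD, 9 were skipped over 1210 kb, which holds 13 H3K4me3 peaks, 10 of them in the window. The positions of skipped peaks are not recorded, so none can be matched to an H3K4me3 peak in any cluster. How many lay in HOXA and HOXD is not known.

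Taking only skipped numbers that must lie inside the windows, the list kept at most 5 of 14 HA-BAZ2B peaks of the clusters (35.7%). Counting all skipped numbers up to the next listed peaks outside, it kept at least 5 of 44 (11.4%). Over the whole list the share was at most 43.2%. For H3K4me3 the same bounds were 80.8 and 85.7% in the clusters, against at most 80.5% overall. In the WT source library 0 skipped numbers must lie inside the windows and at most 21 could, up to 4 of them in HOXB and 3 in HOXC. The distances to WT summits given above are to listed peaks only, so unlisted WT peaks could lie nearer. No listed HA-BAZ2B peak in HOXA and HOXD therefore means no peak of that replicate that recurred, and the number of its unlisted peaks could reach 12 in HOXA and 9 in HOXD.

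**Figure D5:**
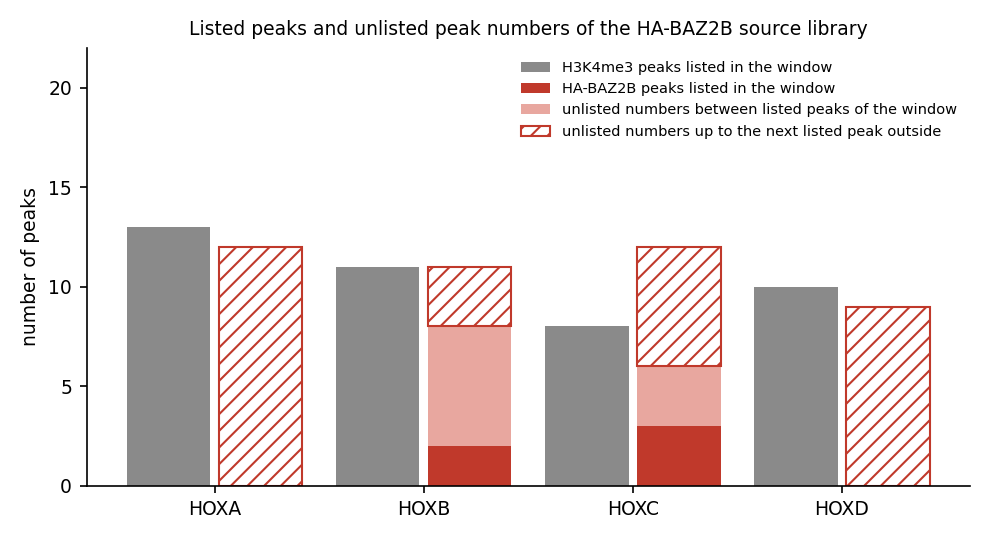
For each cluster, the number of H3K4me3 peaks listed in the window (grey bar) beside the peaks of the HA-BAZ2B source library: listed in the window (red), skipped numbers between listed peaks of the window (pale), and skipped numbers up to the next listed peak outside the window (hatched), some or all of which may lie outside it. HOXA and HOXD have 0 listed peaks and up to 12 and 9 skipped numbers.

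Promoter sequences were searched for a G-quadruplex pattern, since the study concerns such folds. Sequences of the 250 bases before a gene start came from RefSeq on GRCh38.p14 and were found for 20 of the 38 genes, with 27 starts. The pattern was 4 runs of GGG with 1 to 7 bases of any kind between runs, searched on both strands, with overlapping matches joined. It was present before 9 of 27 HOX starts (33.3%, 16.5 to 54.0%) and 8190 of 35116 starts of all genes (23.3%). With identical windows counted once, it was 8 of 26 HOX starts (30.8%, 14.3 to 51.8%). By gene, 9 of 20 HOX genes and 7153 of 27305 of all genes had a start with it. Several of the 27 starts belong to HOXA3, so starts are not independent and the intervals cover counting error only. Of the 9 HOX starts, 3 were in HOXA (of 16 starts), 1 in HOXB (of 1), 2 in HOXC (of 2, with 1 shared sequence) and 3 in HOXD (of 8). With 1 start in HOXB and 1 distinct sequence in HOXC, the clusters could not be compared. A link between the pattern and HA-BAZ2B peaks was not tested. The median G and C content was 58.8% before HOX starts and 58.0% before all starts.

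One start of each cluster is printed to show what the pattern looks like there, with the matches in capitals and all else in lower case, 5′ to 3′ on the strand of the gene. HOXA13 and HOXD13 are the most posterior genes of their clusters, HOXB1 is the most anterior of its own, and the start printed for HOXC4 is shared with HOXC5. Runs of C mark a match on the opposite strand. Coordinates are those of GRCh38.p14 and cannot be set against the hg19 peaks: HOXA13 chr7:27200092-27200341 (minus strand), HOXB1 chr17:48531012-48531261 (minus), HOXC4 chr12:54016638-54016887 (plus) and HOXD13 chr2:176092471-176092720 (plus).
HOXA13: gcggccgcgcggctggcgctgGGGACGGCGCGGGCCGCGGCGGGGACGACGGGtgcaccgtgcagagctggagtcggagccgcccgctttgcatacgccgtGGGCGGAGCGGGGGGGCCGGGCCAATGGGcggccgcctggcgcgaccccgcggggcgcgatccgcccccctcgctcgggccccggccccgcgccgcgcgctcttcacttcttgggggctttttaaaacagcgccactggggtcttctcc
HOXB1: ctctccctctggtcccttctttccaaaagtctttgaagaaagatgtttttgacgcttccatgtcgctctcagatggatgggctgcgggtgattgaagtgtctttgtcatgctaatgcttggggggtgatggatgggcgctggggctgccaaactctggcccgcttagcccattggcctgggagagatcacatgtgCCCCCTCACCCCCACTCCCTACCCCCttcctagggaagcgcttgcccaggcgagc
HOXC4: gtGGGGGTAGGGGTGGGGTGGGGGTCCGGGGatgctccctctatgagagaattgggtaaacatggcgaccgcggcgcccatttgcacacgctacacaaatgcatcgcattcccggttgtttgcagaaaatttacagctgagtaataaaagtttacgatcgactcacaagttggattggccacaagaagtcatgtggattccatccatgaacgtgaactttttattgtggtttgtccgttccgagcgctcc
HOXD13: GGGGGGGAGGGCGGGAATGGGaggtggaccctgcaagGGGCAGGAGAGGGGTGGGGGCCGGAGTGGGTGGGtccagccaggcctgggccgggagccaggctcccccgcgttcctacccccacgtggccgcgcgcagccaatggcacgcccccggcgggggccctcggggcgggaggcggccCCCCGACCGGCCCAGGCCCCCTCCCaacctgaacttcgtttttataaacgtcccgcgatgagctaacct
The capitals take up 61 of 250 bases in HOXA13, in 2 separate blocks, and 80 in HOXD13, where both strands have matches. They take up 26 bases in HOXB1, on the opposite strand, and 29 in HOXC4, at the far end of the window from the gene start. A match describes these letters only, and the fold was not measured here.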

How the data were processed

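CUT&Tag peaks of 3 groups of 3 replicates in A549 cells were used as deposited. Sample titles gave the groups. In the antibody field, H3K4me3 replicates 2 and 3 end in other numbers than replicate 1, and the titles were followed. The submitters' processing notes name Bowtie2 2.4.5, Picard, SAMtools 1.15.1, bedtools and MACS2 2.1.4, with the builds hg19 and dm6. The sources used here do not give MACS2 settings or controls. A list keeps peaks present in at least 2 replicates, with the rows of the largest replicate file, per the labels. Peak names show that these rows come from H3K4me3 replicate 1, HA-BAZ2B replicate 3 and WT replicate 2. Fold enrichment is the ratio over background given by the peak caller in the deposited lists, −log10 q the significance deposited beside it, and the integer score, deposited by the authors, repeats the q and was not used. Start, end and summit offset are in bp. Library depth is unknown, so peak numbers stand without correction for it, and lists are not scaled to each other.

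Only chromosomes 1 to 22, X and Y were used. A peak was placed in a window by start plus summit offset, and an overlap needed at least 1 bp. Shares carry exact (Clopper-Pearson) 95% intervals, which cover counting error only, and a count of 0 was given the limit of 3 counts of the total. Percentages of all peaks stand beside the shares in place of a test. All peaks of the windows were described; the peaks given in detail were those with an anti-HA peak and those at the extremes of a cluster. Peaks at HOX cofactor genes and cluster miRNAs were to be located with an annotation of hg19 and were not analysed here. The members, windows and comparisons were chosen with earlier results of these data known. Python 3.11.15, pandas 2.3.3, numpy 2.4.6 and scipy 1.17.1 were used, and the overlap and pattern searches were tested on simulated intervals and strings with known answers. Alternatives were a −log10 q of at least 5, assignment by any overlap, windows widened by 25 kb and an overlap of at least 50% of the H3K4me3 peak. A −log10 q of at least 10 was added after seeing the data.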

Additional observations from a re-analysis of the deposited data

How the results depend on the processing

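Of 30 recomputed values over 7 results, 27 stayed within 1.5 times the count, or within the interval of the share or median, reported above. The 42 H3K4me3 and 5 HA-BAZ2B peaks, the share of 11.9%, the median width of 1087 bp and the median fold enrichment of 7.46 were the same with a −log10 q of at least 5, assignment by any overlap and windows widened by 25 kb, and the share also when 50% of the H3K4me3 peak had to be covered. The first 3 of these settings could not change the values, so most of the 27 were fixed in advance. Nor could the 50% rule change the share of 11.9%, since each of the 5 H3K4me3 peaks was covered by at least 57.6%. The lowest −log10 q of any HOX peak was 7.43, and the nearest listed peak outside a window lay 38.7 kb from it. The genome-wide share of 39.5% was not recomputed with any setting. The 3 exceptions all concern the single WT peak. With a −log10 q of at least 10 it dropped out, leaving 0 WT peaks and a share of 0% of 41 H3K4me3 peaks, and with 50% coverage required the share was 0% of 42. With that −log10 q, 4 HA-BAZ2B peaks remained in the windows, and 9.76% of the H3K4me3 peaks carried one. No paired analysis was possible because the lists hold no value per replicate, and for the same reason no replicate could be left out. Counts of 5 and 1 leave wide intervals, and skipped peak numbers of the HA-BAZ2B library could not be placed.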
